A study of Homo sapiens with 9 samples.

Results

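The untreated control group of LX-2 cells is described here from 3 RNA-seq libraries out of 9 in the series, with all of their genes ranked by mean level. LX-2 cells descend from human hepatic stellate cells and were immortalised, so that the 3 libraries stand for 1 cell line and not for separate donors. The labels give their genotype as wide type and no treatment, and the cells were grown in DMEM with 10% FBS and antibiotics, with neither TGF-β nor uridine. The remaining libraries, from cells given TGF-β alone or TGF-β with uridine, were not used, and no level below is compared with them. Nothing in the labels says whether the 3 control replicates came from separate cultures, so that the SD given with each mean measures the spread between libraries, which may be technical. Per-library values are listed throughout in the order of replicates 1, 2 and 3, and errors are SDs over n = 3.

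Hepatic stellate cells are the vitamin A-storing pericytes of the liver sinusoid. In the quiescent state they hold retinyl esters in lipid droplets, and on injury they become myofibroblasts that express α-smooth muscle actin and secrete type I and type III collagen. Their intermediate filaments are built of vimentin and, in part, desmin. Keratins 8 and 18, by contrast, form the filaments of simple epithelia such as hepatocytes and bile ducts, where keratins 7 and 19 mark the ducts.

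The libraries held 41160188, 40539751 and 41210439 counts on 20777 listed genes, with reads on 16157, 16561 and 16814 of them. Levels are given in FPKM, which is the count scaled to the length of the gene and to the library total, and a gene is called expressed where its FPKM was at least 1 in all 3 libraries. This held for 7489 genes, or 36% of the listed genes, and for 46.4% of the 15251 listed protein-coding genes, and the count of each gene list below stands against these shares. A count of 0 still allowed up to 3 counts, which is 0.0728 to 0.0740 CPM, a unit that divides by the library total but not by length, in these libraries, and it covers counting error only.

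Replicate 1 stood apart from the other 2 libraries. Across the 7489 expressed genes the Pearson correlation of log2 FPKM was 0.992 between replicates 2 and 3, 0.967 between replicates 1 and 2 and 0.935 between replicates 1 and 3. This is a description across genes, which share the library and its base composition. Only 0.601% of the expressed genes differed over 2-fold between replicates 2 and 3, against 12.9% between replicates 1 and 2 and 20.1% between replicates 1 and 3. The difference followed GC content: among the 1480 genes with the lowest GC (at most 45.7%), the median log2 deviation from the 3-library mean was -0.78 in replicate 1, 0.20 in replicate 2 and 0.57 in replicate 3. In the 1480 genes with the highest GC these medians were 0.18, -0.04 and -0.13. Gene length moved with it to a smaller extent, with a median log2 ratio of replicate 3 to replicate 1 of -0.21 in the 1499 shortest and 0.50 in the 1497 longest genes. Levels that the results turn on are therefore given for each library, and without replicate 1 the expressed genes numbered 8483, or 40.8% of those listed.

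**Figure D1:**
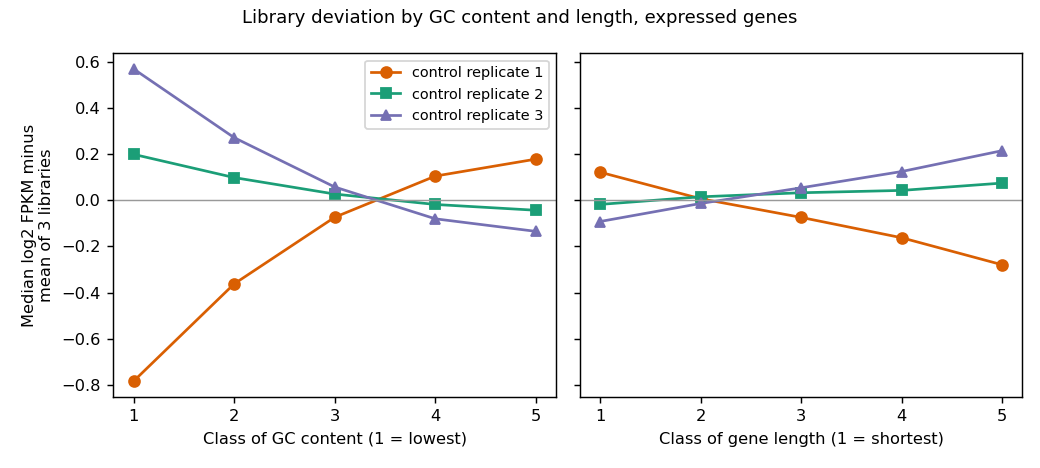
Median deviation of log2 FPKM from the mean of the 3 untreated libraries (vertical axes) for expressed genes in 5 classes of GC content (left) and of gene length (right). Replicate 1 lies lowest in the AT-richest class at -0.78 and highest in the GC-richest class at 0.18, replicate 3 runs the other way, and in the GC panel replicate 2 stays between them.

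The labelled cell type was then set against its markers. Keratin genes of simple epithelia were among the most abundant nuclear transcripts, whereas type I collagen was low for its COL1A1 chain and had no read for its COL1A2 chain. KRT8 (ENSG00000170421, chr12:52897187-52949954, minus strand) reached 2956, 2359.9 and 2109.7 FPKM, a mean of 2475 ± 435 and rank 31 of all genes. KRT18 (ENSG00000111057, chr12:52948871-52952901, plus strand), which encodes the pairing partner of keratin 8, reached 2332, 1792 and 1585 FPKM at rank 37. KRT7 (ENSG00000135480, chr12:52232520-52252186, plus strand) reached 802, 663 and 595 FPKM at rank 102. All 3 keratins were highest in replicate 1 and lowest in replicate 3, and in every library each of them exceeded COL1A1 many times over. The annotation places KRT8 and KRT18 next to each other with overlapping ends, and 16.3% of the KRT18 exon bases are shared with another gene, where reads could be assigned only with a strand setting, which is not given.

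COL1A1 (ENSG00000108821, chr17:50183289-50201632, minus strand), the α1 chain of type I collagen, was at 7.34, 7.63 and 8.08 FPKM, a mean of 7.69 ± 0.374 and rank 4345. COL1A2 (ENSG00000164692, chr7:94394561-94431232, plus strand), the α2 chain of the same protein, had 0 counts in all 3 libraries, which allows up to 0.0146 FPKM. COL3A1, the chain of type III collagen, was at 0.0752, 0.139 and 0.124 FPKM. The 3 libraries thus had the same order, keratins far above COL1A1 and COL1A1 above COL3A1, with no overlap between the genes. The ratio of KRT8 to COL1A1 in FPKM was 403, 309 and 261 within replicates 1, 2 and 3, a log2 difference of 8.32 ± 0.32. With gene lengths from GENCODE v29 in place of those behind the deposited FPKM, this ratio was 192, 148 and 125, a log2 difference of 7.25. Against COL1A2, with its 0 counts set to the limit of 3, KRT8 was at least 146988-fold higher on the deposited FPKM in the library where this bound was lowest. A sign-flip test of such within-library differences cannot give a p below 0.25 with 3 libraries, and none was run. In bulk RNA fewer cells of a type and less RNA per cell cannot be told apart, so that these levels describe the culture as a whole. Since these markers go in part against the labelled cell type, the cells are called untreated LX-2 libraries below, and no other cell type name is given to them.

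**Figure D2:**
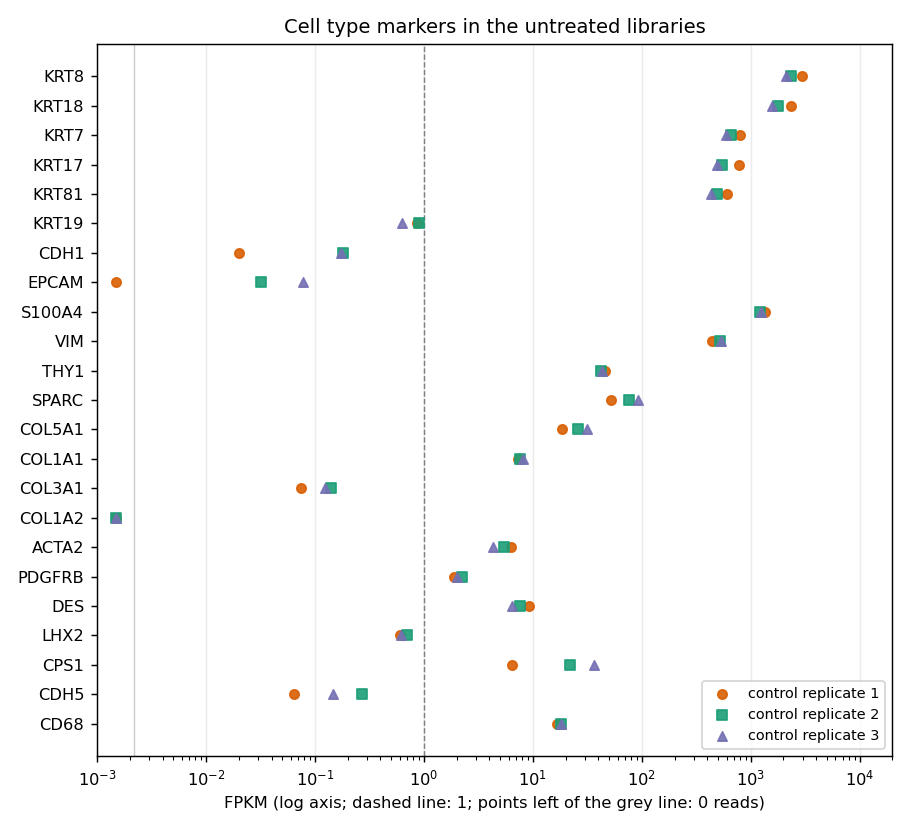
FPKM of cell type marker genes (log axis) in each of the 3 untreated libraries, with the expression limit of 1 FPKM as a dashed line and genes without reads left of the grey line. KRT8, KRT18, KRT7, KRT17 and KRT81 lie between 432 and 2956 FPKM, COL1A1 lies between 7.34 and 8.08, and COL1A2 has no reads.

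The keratin family was read further. Of 33 listed keratin genes 11 were expressed, or 33.3% against 36% of all listed and 46.4% of protein-coding genes. No read fell on 6 of them, and the family together took 1.01% to 1.43% of all counts. KRT17, a keratin of basal and stress-responsive epithelium, was at 776, 544 and 493 FPKM, and KRT81, a hair keratin encoded in the same chromosome 12 cluster as KRT7, was at 611, 488 and 432 FPKM. Both were again highest in replicate 1. KRT10, which pairs with other keratins in differentiated epidermis, ran the other way with 48.6, 67.5 and 73.6 FPKM. KRT80 (44 ± 2.63 FPKM), KRT16 (20.9 ± 5), KRT86 (3.74 ± 0.607), KRT14 (2.94 ± 0.803) and KRT15 (1.74 ± 0.188) were expressed at lower levels. KRT19, the usual companion of KRT7 in bile ducts, stayed under the limit at 0.856, 0.905 and 0.628 FPKM, so that KRT7 exceeded it 937-, 732- and 946-fold. KRT14, KRT16 and KRT17, and likewise KRT81 and KRT86, are close in sequence, and the counting could split reads between them. KRT8 and KRT18, which form 1 heteropolymer, kept a narrow FPKM ratio of 1.27, 1.32 and 1.33, but with GENCODE v29 lengths KRT18 was the higher of the pair, at a ratio of 0.787, 0.818 and 0.827.

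Type I collagen, the main collagen of fibroblasts, was not the highest collagen in these libraries. Of 37 listed collagen chains 11 were expressed, or 29.7% against 36% of all listed and 46.4% of protein-coding genes. No read fell on 4 of them, and all chains together took 0.0525% to 0.0971% of the counts. The highest was COL5A1 of the fibril-nucleating type V collagen, at 18.5, 26.2 and 31.4 FPKM, followed by its partner chain COL5A2 at 9.4, 18.9 and 29.2. COL5A1 exceeded COL1A1 by 2.52-, 3.44- and 3.89-fold, and by 3.99-, 5.45- and 6.17-fold with GENCODE v29 lengths. Next came COL4A2 of basement membranes (11.2 ± 3.52 FPKM), COL6A1 of microfibrils (8.85 ± 0.133) and COL7A1 of anchoring fibrils (8.74 ± 2.1). COL6A1 lay above COL1A1 without overlap in FPKM, whereas the ranges of COL4A2 and COL7A1 overlapped with that of COL1A1. Within each library COL4A2 was above COL1A1, at 7.69, 11.1 and 14.7 FPKM. COL7A1 was below COL1A1 in replicate 1, at 6.67 FPKM, and above it in replicates 2 and 3. The order of COL6A1 and COL1A1 rests on the lengths behind the FPKM, 4203 and 5937 bases, since in counts COL1A1 was higher in every library. This pair was not compared with GENCODE v29 lengths. The partners of COL6A1 were far lower, with COL6A2 at 0.162, 0.363 and 0.33 FPKM and COL6A3 at 0, 0.0695 and 0.0866 FPKM.

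Of 13 listed genes of the quiescent stellate cell 3 were expressed, DES, ECM1 and PPARG. This is 23.1% against the 36% of all listed genes, a difference of few genes, with a list median of 0.139 FPKM against 0.392 FPKM over all listed genes. DES, the muscle-type intermediate filament desmin, was at 9.29, 7.6 and 6.4 FPKM. ECM1, a secreted inhibitor of latent TGF-β activation, was at 14, 12.9 and 14 FPKM. PPARG, the nuclear receptor of adipogenic differentiation, was at 2.39, 3.43 and 4.41 FPKM and lowest in replicate 1. LHX2, a LIM homeobox factor that restrains stellate cell activation, lay below the limit at 0.604, 0.694 and 0.613 FPKM. The globin CYGB lay below it too, at 0.4, 0.295 and 0.174 FPKM. HAND2, a factor of the stellate lineage, had 0 counts in all 3 libraries, which allows up to 0.0266 FPKM. GFAP, RELN and COLEC11 each had reads in only 1 library and stayed at or under 0.0128 FPKM. Without replicate 1 the count stayed at 3.

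Of genes of activated stellate cells and fibroblasts 16 of 24 listed were expressed, or 66.7% against 36% of all listed and 46.4% of protein-coding genes, with a median of 7.89 FPKM. The list was uneven. S100A6, a calcium-binding protein of motile cells, was at 969, 830.0 and 799 FPKM. TIMP1, an inhibitor of matrix metalloproteinases, was at 153, 126 and 112 FPKM. VIM, the mesenchymal filament protein vimentin, was at 438, 525 and 539.5 FPKM. VIM was lowest in replicate 1 and highest in replicate 3, opposite to the keratins, so that the FPKM ratio of KRT8 to VIM went from 6.74 in replicate 1 to 4.5 and 3.91 in replicates 2 and 3. SPARC, a collagen-binding matricellular protein, was at 52, 76.2 and 92.8 FPKM. The surface marker THY1 was steady at 45.6, 42.3 and 42.8 FPKM.

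Defining genes of the myofibroblast lay lower in the same list. ACTA2, the α-smooth muscle actin of activated stellate cells, was at 6.25, 5.42 and 4.28 FPKM, and 30.1% of its exon bases are shared with another gene. The cytoplasmic actin ACTB exceeded it 722-, 880- and 1095-fold. PDGFRB, the PDGF receptor of pericytes, was at 1.91, 2.25 and 2.02 FPKM. Fibronectin FN1 was at 4.95, 9.04 and 10.3 FPKM and fibrillin FBN1 at 2.67, 5.89 and 9.61, both lowest in replicate 1. The gelatinase MMP2 was at 10.7, 15.7 and 19 FPKM. The collagen cross-linking enzyme LOX passed the limit only without replicate 1, with 0.867, 1.3 and 1.81 FPKM. The matrix proteoglycan gene LUM did not pass it, at 0, 0.139 and 0.154 FPKM, and neither did TNC and FAP, at 0.197, 0.515 and 0.565 and at 0.00293, 0.0149 and 0.0292 FPKM.

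Epithelial genes outside the keratins were divided. Of 26 listed junction and identity genes 13 were expressed, or 50%, near the 46.4% of protein-coding genes, with a list median just above 1 FPKM. Desmosome components led the list. Plakoglobin JUP was at 98.1, 94.6 and 92.3 FPKM. Plakophilin PKP3 was at 93, 75.8 and 70.9 FPKM. Desmoplakin, encoded by DSP, was at 9.1, 25.6 and 42.7 FPKM. The level of DSP was lowest in replicate 1 and highest in replicate 3. The mucin MUC1 was at 69.9, 59.9 and 57.7 FPKM. The claudins CLDN4 (7.81 ± 0.663 FPKM) and CLDN7 (6.76 ± 1.62) and the P-cadherin gene CDH3 (7.95 ± 0.986) were expressed at a lower level. In contrast, the E-cadherin gene CDH1 was at 0.0199, 0.182 and 0.174 FPKM. The adhesion molecule EPCAM was at 0, 0.0319 and 0.0784 FPKM, and the epithelial splicing regulator ESRP1 had no read. CDH3 exceeded CDH1 343-, 47.8- and 47.8-fold, the widest ratio resting on 4 counts of CDH1 in replicate 1. The N-cadherin gene CDH2, at 1.4, 3.28 and 5.21 FPKM, exceeded CDH1 70.5-, 18.0- and 29.9-fold. Without replicate 1 the expressed genes numbered 15, with TJP1 and DSG2 added.

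Genes tied to the mesenchymal transition were expressed in 8 of 14 cases, or 57.1% against 36% of all listed and 46.4% of protein-coding genes. Without replicate 1 these were 10, or 71.4% against 40.8% of all listed genes. S100A4, a calcium-binding protein of fibroblasts, was the highest at 1344, 1225 and 1246 FPKM. Among the transcription factors, SNAI1 was at 15.2, 13.1 and 12.7 FPKM and TWIST2 at 15.7, 11.2 and 9.43. ZEB1 was at 0.0237, 0.0181 and 0.0237 FPKM and ZEB2 at 0.0184, 0.0666 and 0.23. PRRX1, a homeobox factor of mesenchyme, had no read in any library. SNAI1 and TWIST2 thus lay above the limit of 1 FPKM and ZEB1 and ZEB2 below it in all 3 libraries.

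Markers of hepatocytes and endothelial cells were mostly near 0, whereas the cholangiocyte list held KRT7. Hepatocyte genes were expressed in 1 of 13 cases, namely CPS1, the carbamoyl phosphate synthase of the urea cycle, at 6.46, 22 and 36.5 FPKM. Among the others the pioneer factor FOXA1 reached 0.946, 1.56 and 1.76 FPKM. HNF4A, the master factor of hepatocytes, was at 0.26, 0.207 and 0.191 FPKM, and AHSG, APOA2 and APOH had no read. The summed level of the hepatocyte list was 7.72 to 38.6 FPKM, most of it from CPS1. Cholangiocyte genes were expressed in 3 of 8 cases, KRT7, ANXA4 and AQP1, or 37.5%, with a median of 0.454 FPKM. This share is near that of all listed genes and under the 46.4% of protein-coding genes. SOX9, a factor of duct cells, was at 0.0309, 0.126 and 0.0926 FPKM and SPP1 at 0.0694, 0.0846 and 0.18. None of 6 listed endothelial genes was expressed, with a summed level of 0.269 to 0.405 FPKM and no read for ERG and TIE1. Of 8 listed immune genes only CD68 (17.7 ± 0.732 FPKM) and CSF1R (2.36 ± 0.165) were expressed, 4 were at 0, the sum was 19.5 to 20.6 FPKM, and CD68 shares 85.8% of its exon bases with another gene.

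Mesothelial and smooth muscle lists gave mixed counts, 40% and 57.1% against 36% of all listed and 46.4% of protein-coding genes. For mesothelium 4 of 10 genes were expressed. TM4SF1, a membrane protein of several epithelia, was at 319, 349.9 and 368 FPKM. The calcium binder CALB2 was at 24, 22 and 21.3 FPKM and the surface glycoprotein MSLN at 17.1, 20.8 and 25.2. UPK3B, a uroplakin of the mesothelial surface, was at 5.32, 4.06 and 3.87 FPKM. WT1, the factor that defines the mesothelial lineage, had no read. For smooth muscle 8 of 14 were expressed, led by the tropomyosin TPM2 at 472, 405 and 375 FPKM. The myosin light chain MYL9 was at 146, 119.9 and 101 FPKM. The late contractile genes MYH11 and CNN1 had means of 0.00349 and 0.0303 FPKM, and their coactivator MYOCD had no read.

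**Figure D3:**
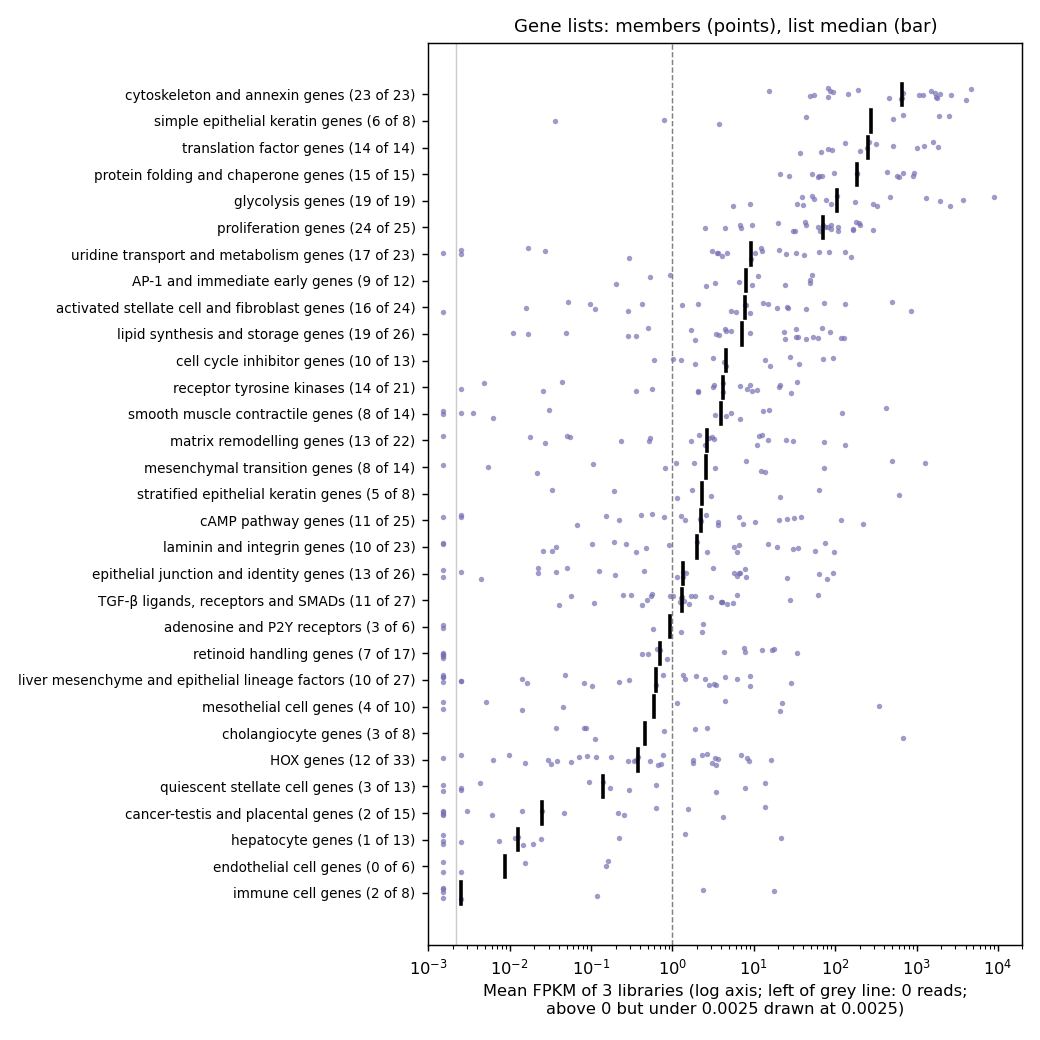
Mean FPKM of each listed gene over the 3 untreated libraries (points, log axis) by gene list, with the list median as a bar and, in brackets, the expressed genes of the listed ones. The list medians run from 667 FPKM for cytoskeleton and annexin genes down to near 0 for immune cell genes.

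The most abundant transcripts of the untreated libraries were those of respiration, iron storage, glycolysis, translation and the cytoskeleton. The 13 protein genes of the mitochondrial genome took 11.1% to 16.5% of the counts and were led by the cytochrome oxidase subunit COX3 at 34618, 25990.0 and 21728 FPKM. Among nuclear genes the ferritin heavy chain FTH1, which oxidises and stores iron, was highest at 10592, 9017 and 8331 FPKM, followed by the glycolytic enzyme GAPDH at 10483, 8895 and 7811. The ribosomal protein gene RPS2 came next at 10277, 7753 and 6594 FPKM. The ferritin light chain FTL was at 7346, 5981 and 5047 FPKM and ACTB at 4514, 4766 and 4688. FTH1, GAPDH, RPS2, FTL and ACTB kept this order in all 3 libraries, but with GENCODE v29 lengths FTH1 fell below FTL, at a ratio of 0.861, 0.901 and 0.986. Further down the order was less firm: of the 29 neighbouring pairs among the 30 most abundant nuclear genes, 11 kept their order in all 3 libraries. KRT8, for example, lay between IFITM3 and RPL12 with means of 2476 and 2475 FPKM on either side, and cannot be ranked against them. FTH1 shares 62.4% and the elongation factor EEF1G 99.9% of their exon bases with another annotated gene, and ribosomal protein, actin and tubulin genes have near-identical copies, so that their levels carry that uncertainty.

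Few genes held most of the counts. The 100 genes with most counts took 36.5% ± 4.5 of a library, from 32.2% to 41.2%, and 27.9% ± 3.02 without the mitochondrial genes. From 211 to 403 genes were enough to hold 50% of the counts, the fewest in replicate 1. Counted by level, 75 genes had a mean of at least 1000 FPKM and 597 more at least 100 FPKM, while 2308 listed genes had no read in the 3 libraries. Transcripts annotated as lncRNA took 0.383% to 0.453% of the counts, and 299 of 4453 were expressed.

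**Figure D4:**
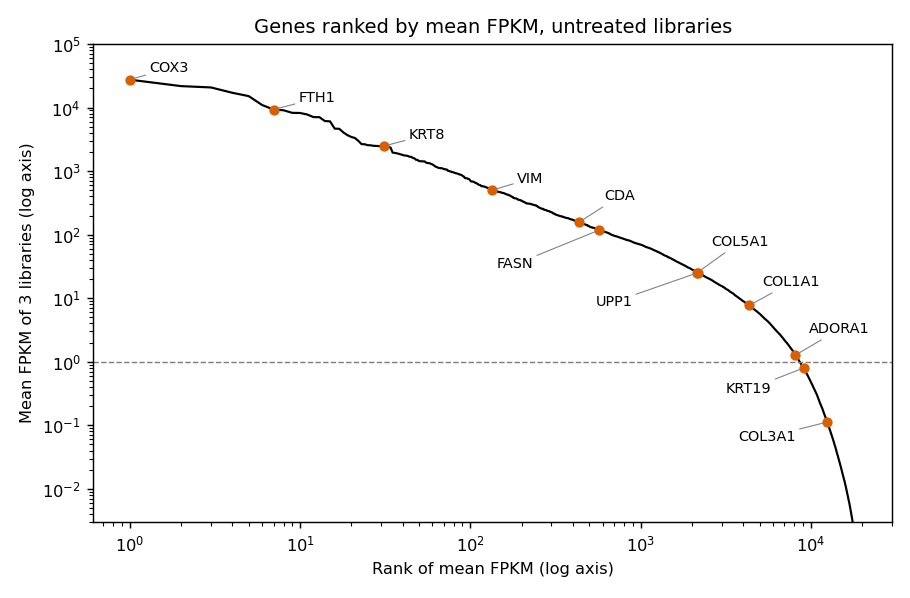
Mean FPKM over the 3 untreated libraries (vertical log axis) of all genes against their rank (horizontal log axis), with named genes as points. KRT8 stands at rank 31 with 2475 FPKM, near the ribosomal protein genes, while COL1A1 stands at rank 4345 with 7.69 FPKM and ADORA1 at rank 8131 with 1.28 FPKM.

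Ribosomal protein genes made up 14 of the 30 and 47 of the 100 most abundant nuclear genes. Of 83 listed, 81 were expressed with a median of 754 FPKM, and the family took 8.32% to 9.86% of the counts. Their messages are known to begin with a run of pyrimidines that places their translation under mTOR control. The windows below show that start for 10 of these 14 genes, all with an entry in the RefSeq promoter table (GRCh38.p14). RPL8 was left out for its location, whether or not it has an entry. Each window has 30 bases before and 30 bases from the annotated start, with the pyrimidine run at the start in capitals.
RPLP0 (chr12:120201082-120201141, minus strand): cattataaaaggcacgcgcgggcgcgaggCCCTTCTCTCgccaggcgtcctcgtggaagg
RPS18 (chr6:33272045-33272104, plus strand): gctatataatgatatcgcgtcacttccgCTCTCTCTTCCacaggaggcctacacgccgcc
RPL35 (chr9:124861928-124861987, minus strand): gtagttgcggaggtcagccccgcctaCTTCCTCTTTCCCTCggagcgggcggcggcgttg
RPSA (chr3:39406690-39406749, plus strand): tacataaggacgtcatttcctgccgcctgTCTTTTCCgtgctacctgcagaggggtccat
RPLP2 (chr11:809937-809996, plus strand): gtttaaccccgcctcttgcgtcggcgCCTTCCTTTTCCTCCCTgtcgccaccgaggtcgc
RPL12 (chr9:127451377-127451436, minus strand): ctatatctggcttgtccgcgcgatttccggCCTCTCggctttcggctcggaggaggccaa
RPL7A (chr9:133348188-133348247, plus strand): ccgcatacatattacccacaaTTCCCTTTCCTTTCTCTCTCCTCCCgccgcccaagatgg
RPL41 (chr12:56116603-56116662, plus strand): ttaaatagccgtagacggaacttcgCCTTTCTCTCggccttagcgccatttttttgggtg
RPLP1 (chr15:69452788-69452847, plus strand): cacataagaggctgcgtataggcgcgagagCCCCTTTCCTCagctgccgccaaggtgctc
RPL24 (chr3:101686689-101686748, minus strand): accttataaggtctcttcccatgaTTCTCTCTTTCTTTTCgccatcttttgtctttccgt

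The runs shown were 6 to 25 bases long, shortest for RPL12 at 2382, 2551 and 2490.3 FPKM and longest for RPL7A at 2723, 2274 and 2069 FPKM. A run of at least 6 pyrimidines overlapping the 5 bases on either side of the start was present in 74.2% of the 66 ribosomal protein genes with a promoter entry, against 21.9% of all 27305 genes in the table and 21.6% of 6084 expressed genes. Among 45 other genes of the 100 most abundant the share was 37.8%. The motif CTTTCC lay on the sense strand of the 60-base window in 28.8% of ribosomal protein genes and 2.83% of all promoters, and on the antisense strand in 0% and 2.67%. The overlapping pyrimidine motif CTCTT was there on the sense strand in 39.4% and 7.43%, and on the antisense strand in 6.06% and 7.99%. These matches describe the letters in the window and nothing about binding.

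The 100 most abundant nuclear genes had a median length of 1071 bases against 3373 bases for expressed nuclear protein-coding genes. Since FPKM divides by this length, a ranking by FPKM favours short genes by construction, and nothing is read from the difference. Their median GC content was 53.8% against 53.5%.

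All 19 listed glycolysis genes were expressed, with a median of 105 FPKM against 0.392 FPKM over all listed genes, and 10 of them had means of at least 100 FPKM, which 3.23% of all listed genes did. After GAPDH came the enolase gene ENO1 at 4275, 3532 and 3215 FPKM. The pyruvate kinase gene PKM was at 2807, 2519.6 and 2341 FPKM. The triose phosphate isomerase gene TPI1 was at 2383, 1822 and 1592 FPKM. Lactate dehydrogenase was divided between LDHA at 949, 1404 and 1534 and LDHB at 273, 513 and 649 FPKM, a ratio of 3.48, 2.74 and 2.37, or 2.14, 1.68 and 1.45 with GENCODE v29 lengths. The glucose transporter SLC2A1 was at 106, 106 and 105 FPKM. The lactate exporter SLC16A3 was at 190.4, 169 and 167 FPKM. Hexokinase HK1 (49.5, 52 and 52.6 FPKM) lay above HK2 (2.23, 5.51 and 8.8) in every library. ALDOA, an aldolase with 53.5% of its exon bases shared with another gene, was listed at 39.3, 32.2 and 30.1 FPKM.

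The cytoskeleton list had the highest median apart from the 5 cell type markers, 667 FPKM, with 23 of 23 genes expressed. The actin-binding thymosin TMSB10 was at 4471, 3942 and 3731 FPKM. ACTG1, the other cytoplasmic actin, was at 2834, 2661 and 2465 FPKM. The tubulins TUBA1B, at 1944, 2066 and 1852 FPKM, and TUBB, at 1741, 1755 and 1692 FPKM, build microtubules. The actin-severing cofilin CFL1 was at 1779, 1457 and 1264 FPKM. Annexins were lower, and ANXA1, a phospholipid-binding protein, was at 2.31, 16.3 and 27 FPKM with its lowest value in replicate 1. Chaperones were expressed in 15 of 15 cases with a median of 183 FPKM. The small heat shock protein gene HSPB1 was at 1043, 924 and 813 FPKM. HSP90AB1, the constitutive HSP90, was at 604, 994 and 1148 FPKM. SERPINH1, the collagen-specific chaperone, was at 67.4, 68.3 and 69.3 FPKM, a steady level well above that of COL1A1. HSP90AA1, the inducible HSP90, ranged from 7.09 FPKM in replicate 1 to 133 in replicate 3.

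Proliferation genes were expressed in 24 of 25 cases, and in 25 without replicate 1, with a median of 70.9 FPKM. CDC20, which activates the anaphase-promoting complex, was at 319.7, 289.8 and 264 FPKM. The mitotic cyclin CCNB1 was at 169, 208 and 225 FPKM and the mitotic kinase PLK1 at 216, 189 and 178. The replicative helicase subunit MCM7 was at 197, 178 and 167 FPKM. Like CCNB1 (GC content 44.8%), other members were lowest in replicate 1. The proliferation antigen MKI67 (GC content 48.0%) was at 4.06, 9.23 and 14.8 FPKM. The mitotic kinase CDK1 (GC content 35.8%) was at 1.29, 4.24 and 7.62 FPKM, and the topoisomerase TOP2A (GC content 38.9%) at 0.743, 1.57 and 5.32. Cell cycle inhibitors were present beside them. CDKN2A, the gene of p16 and p14ARF, was at 105, 89.9 and 84.7 FPKM. CDKN1A, an inhibitor of cyclin-dependent kinases, was at 41.5, 33.7 and 33.9 FPKM. RB1, the pocket protein that p16 acts through, was at 0.223, 0.984 and 1.85 FPKM. MDM2, a ubiquitin ligase, was at 0.222, 0.559 and 1.01 FPKM. In all, 10 of 13 genes of this list were expressed.

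Matrix remodelling genes were expressed in 13 of 22 cases, or 59.1% against 36% of all listed and 46.4% of protein-coding genes. The inhibitors TIMP1 and TIMP2, the latter at 60.1, 77.8 and 83.1 FPKM, lay above every listed metalloproteinase. TIMP4 was at 33.6, 29.2 and 28.3 FPKM and TIMP3 at 9.67, 11.6 and 11.5. The membrane-bound metalloproteinase MMP15 was at 26.3, 24.3 and 24.8 FPKM and the collagenase MMP1 at 2.06, 1.43 and 2.91. MMP14, the activator of MMP2, was at 0.0197, 0.0533 and 0.0918 FPKM. Laminin and integrin genes were expressed in 10 of 23 cases, or 43.5%, near the 46.4% of protein-coding genes. Without replicate 1 these were 12, or 52.2% against 40.8% of all listed genes. The fibronectin receptor chain ITGA5 was at 94.2, 96.3 and 98 FPKM. The epithelial laminin chain LAMB3 was at 72.2, 73.4 and 78.2 FPKM and the laminin receptor chain ITGA3 at 54.6, 57 and 57.3. ITGB1, the β chain that pairs with ITGA5 and ITGA3, was at 0.967, 5.21 and 11 FPKM and so passed the limit only without replicate 1. The GC content was 40.9% for ITGB1, 56.2% for ITGA5 and 59.1% for ITGA3, and its part in this difference was not tested.

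Lineage factors were expressed in 10 of 27 cases, or 37.0%, close to the 36% of all listed genes and under the 46.4% of protein-coding genes. TFAP2A, a factor of neural crest and surface ectoderm, was the highest at 21.7, 29.4 and 34.3 FPKM. KLF5, a factor of epithelial progenitors, was at 4.03, 9.38 and 13.4 FPKM and the mesenchymal factor FOXF2 at 7.87, 9.41 and 9.37. FOXF1, a factor of the liver mesenchyme, was at 1.97, 2.45 and 3.16 FPKM and NR2F2 at 2.48, 4.63 and 6.27. GATA4 had reads in only 1 library at 0.00646 FPKM, and WT1, HAND2, MEF2C and OVOL2 had none. HOX genes, which keep a record of position along the body axis, were expressed in 12 of 33 cases, or 36.4%. This share is near that of all listed genes and under the 46.4% of protein-coding genes. HOXC10 was the highest at 15, 17.2 and 16.3 FPKM, followed by HOXC5 (8.81 ± 1.28), HOXB7 (8.28 ± 1.37) and HOXC9 (6.88 ± 1.15). HOXC5 shares 59.9% of its exon bases with another gene, and in replicate 3 it was below HOXB7, at 7.34 against 9.65 FPKM. No HOXD gene was expressed. In the list of cancer-testis and placental genes 2 of 15 were expressed, MAGEA1 at 9.94, 13.9 and 16.8 FPKM and PRAME at 3.82, 4.48 and 4.34.

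In the TGF-β pathway a ligand lay well above its receptors. TGF-β signals through a type II receptor that recruits the type I receptor, which phosphorylates SMAD2 and SMAD3. TGFB1, the main ligand, was at 75, 58.9 and 52.9 FPKM. TGFB3 was at 1.33, 2.15 and 2.15 FPKM and TGFB2 at 0.0286, 0.0207 and 0.0734. The type II receptor TGFBR2 was at 1.46, 4.25 and 6.62 FPKM and the type I receptor TGFBR1 at 0.15, 0.351 and 0.755, both lowest in replicate 1, with a ratio of 9.72, 12.1 and 8.77. The coreceptor ENG, at 29.6, 28 and 26.9 FPKM, lay above both of them in every library. The GC content was 61.4% for TGFB1 and 61.8% for ENG, against 47.2% for TGFBR2 and 39.7% for TGFBR1. Its part in these orders was not tested. SMAD3 was at 3.42, 3.86 and 4.49 FPKM and SMAD2 at 0.262, 0.628 and 0.802, in that order in every library. In counts SMAD2 was the higher of the pair in replicate 3, so that the order there rests on gene length. The lengths behind the FPKM are 7289 bases for SMAD3 and 42081 for SMAD2. With GENCODE v29 lengths SMAD3 was also the higher in every library, at a ratio of 9.03, 4.25 and 3.88. The shared SMAD4 was at 0.615, 1.66 and 2.45 FPKM. Of 27 listed genes of the pathway 11 were expressed, or 40.7%, near the 36% of all listed and 46.4% of protein-coding genes. Without replicate 1 these were 18, or 66.7% against 40.8% of all listed genes. No share of protein-coding genes was computed without replicate 1. Added were TGFBR3, ACVR1, BMPR1A, SMAD1, SMAD4, SMAD5 and SMAD7, so that this count rests on that library.

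Receptor tyrosine kinases were expressed in 14 of 21 cases, or 66.7% against 36% of all listed and 46.4% of protein-coding genes. The collagen receptor DDR1 was at 33.7, 33.1 and 34.2 FPKM. The ephrin receptors EPHB4 and EPHA2 were at 28.7, 28.2 and 29.2 FPKM and at 18.7, 20.2 and 22.8 FPKM. IGF1R, the receptor of insulin-like growth factors, was at 17.5, 21.8 and 24.3 FPKM. DDR2, the collagen receptor of mesenchymal cells, was at 1.11, 1.94 and 3.12 FPKM. The HGF receptor MET, at 0.997, 3.67 and 7.91 FPKM, passed the limit only without replicate 1.

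Uridine, the agent that the study gives to these cells, enters through nucleoside transporters, is phosphorylated to UMP by uridine-cytidine kinases or split to uracil by uridine phosphorylase, and is otherwise made de novo from carbamoyl phosphate. Of 23 listed genes for its transport and metabolism 17 were expressed, or 73.9% against 36% of all listed and 46.4% of protein-coding genes. Their median was 9.21 FPKM. The equilibrative transporter SLC29A1 (chr6:44219505-44234151, plus strand) was at 93.6, 82.4 and 78 FPKM and SLC29A2 at 14.2, 12.2 and 10.7, a ratio of 6.6, 6.75 and 7.29, or 3, 3.07 and 3.31 with GENCODE v29 lengths. Of the concentrative transporters SLC28A3 was at 0.00282, 0.0286 and 0.0507 FPKM, SLC28A1 at 0.00911, 0.037 and 0.00455, and SLC28A2 had reads in replicate 1 only. The equilibrative carriers thus lay above the concentrative ones in every library without overlap.

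For salvage, UCK2 was at 26, 33.2 and 40.1 FPKM and UCK1 at 23.7, 18.4 and 18.3, in that order in all 3 libraries but with a ratio from 1.10 in replicate 1 to 2.19 in replicate 3. With GENCODE v29 lengths UCK1 was the higher of the pair in replicate 1, at a ratio of UCK2 to UCK1 of 0.953. For breakdown, UPP1 (chr7:48088628-48108733, plus strand), the uridine phosphorylase, was at 31.1, 23.8 and 20.6 FPKM. CDA, which deaminates cytidine to uridine, was the highest of the list at 177, 155 and 141 FPKM. For de novo synthesis, the trifunctional enzyme CAD was at 67, 63.4 and 60.9 FPKM. The mitochondrial dehydrogenase DHODH was at 2.89, 3.38 and 2.83 FPKM. UMPS, which forms UMP, was at 5.96, 9.49 and 12.2 FPKM and lowest in replicate 1. The later enzymes of uracil catabolism were low, with DPYD at 0.152, 0.32 and 0.395 FPKM and no read for DPYS. Uptake, salvage, phosphorolysis and synthesis were thus each represented by expressed genes.

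Adenosine receptors couple to inhibitory or stimulatory G proteins and so lower or raise cAMP. Of 12 adenosine and P2Y receptor genes looked for, 6 were not among the listed genes and have no level here. Of the 6 listed ones 3 were expressed. ADORA1 (ENSG00000163485, chr1:203090654-203167405, plus strand), the inhibitory A1 receptor that the study examines, was at 1.53, 1.22 and 1.08 FPKM, a mean of 1.28 ± 0.226 and rank 8131, just above the limit in every library. ADORA2B, a stimulatory receptor, was at 2.23, 2.35 and 2.38 FPKM and exceeded ADORA1 by 1.46-, 1.93- and 2.2-fold, or 4.35-, 5.75- and 6.55-fold with GENCODE v29 lengths. P2RY6, a receptor for uridine diphosphate, was at 2.67, 2.27 and 2.15 FPKM and P2RY2, a receptor for uridine triphosphate, at 0.651, 0.491 and 0.579. ADORA2A had no read, but 60% of its exon bases are shared with another gene, so that the counting could have left its reads out. ADORA2B and P2RY6 overlapped in level and cannot be ordered.

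The cAMP pathway downstream of these receptors was led by G protein subunits. Of 25 listed genes 11 were expressed, or 44%, near the 36% of all listed and 46.4% of protein-coding genes. Without replicate 1 these were 16, or 64% against 40.8% of all listed genes, and no share of protein-coding genes was computed for that setting. The inhibitory subunit GNAI2 was at 224, 219 and 209 FPKM and the stimulatory GNAS at 100.5, 121 and 132. GNAI3 was at 0.489, 2.87 and 4.49 FPKM and GNAI1 at 0.155, 0.297 and 0.765, so that GNAI2 was the highest inhibitory subunit in every library. The ratio of GNAI2 to GNAI3 was 459, 76.4 and 46.6. GC content was 57.5% for GNAI2, 41.8% for GNAI3 and 38.8% for GNAI1, and its part in this order was not tested. Among adenylyl cyclases ADCY3 was highest at 18.9, 20.5 and 22.3 FPKM. ADCY9 was at 6.33, 7.47 and 8.09 FPKM and ADCY6 at 3.33, 3.65 and 3.84. The catalytic subunit of protein kinase A was PRKACA, at 37.6, 37.4 and 38 FPKM, above PRKACB at 0.0586, 0.152 and 0.442 by 643-, 246- and 85.8-fold, or 364-, 139- and 48.6-fold with GENCODE v29 lengths. Of its regulatory subunits PRKAR2A was at 16.7, 36.1 and 41.1 FPKM and PRKAR1A at 2.78, 6.64 and 10.3. CREB1, the transcription factor that protein kinase A phosphorylates, was at 0.0305, 0.0715 and 0.097 FPKM and its relative ATF1 at 0.947, 3.79 and 6.2. On the deposited FPKM PRKACA was among the steadiest genes of the list, whereas CREB1, ATF1 and PRKACB were all lowest in replicate 1.

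AP-1 and immediate early genes were expressed in 9 of 12 cases, or 75% against 36% of all listed and 46.4% of protein-coding genes. JUND was at 57.9, 51.1 and 48.3 FPKM and JUNB at 50.7, 49.1 and 47.3, and the early response gene IER3 was at 50.3, 47.4 and 48.2 FPKM. FOS was lower at 5.67, 6.95 and 7.24 FPKM and JUN at 2.3, 2.72 and 2.71. EGR1, a zinc finger factor of the early response, was at 0.503, 0.574 and 0.534 FPKM and FOSB at 0.27, 0.157 and 0.174, both under the limit.

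**Figure D5:**
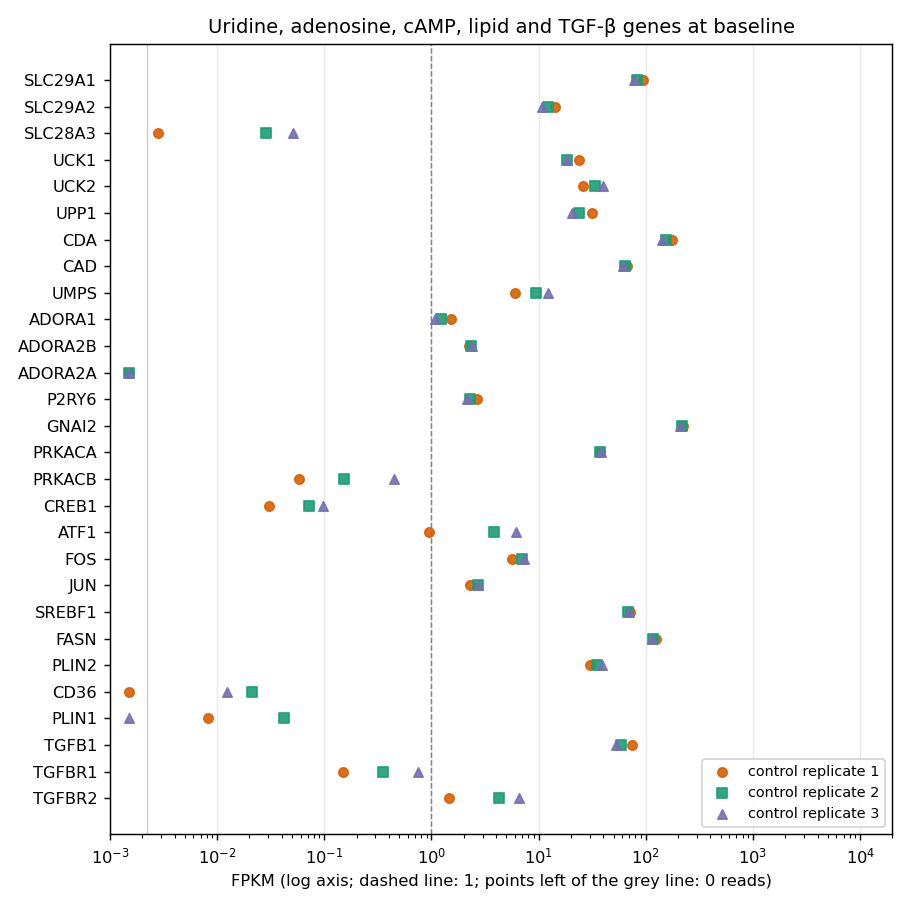
FPKM of uridine, adenosine receptor, cAMP, AP-1, lipid and TGF-β genes (log axis) in each of the 3 untreated libraries, with the limit of 1 FPKM as a dashed line and genes without reads left of the grey line. CDA, FASN, SREBF1, GNAI2 and SLC29A1 lie above 50 FPKM in all libraries, ADORA1 lies just above 1, and CD36, PLIN1 and CREB1 lie below 0.1.

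Lipid synthesis genes were expressed in most cases, whereas PLIN1 and CD36 were not. Of 26 listed genes 19 were expressed, or 73.1% against 36% of all listed and 46.4% of protein-coding genes. Their median was 7.19 FPKM. SCD, the stearoyl-CoA desaturase, was at 86.9, 136 and 162 FPKM. FASN, the fatty acid synthase, was at 123, 116 and 115 FPKM. ACLY, which supplies cytosolic acetyl-CoA, was at 68.6, 89 and 98.3 FPKM. SREBF1, the transcription factor that drives these genes, was at 71.6, 67.6 and 69.9 FPKM. The droplet coat genes PLIN2, at 30.2, 34.7 and 38.7 FPKM, and PLIN3, at 50.2, 41.5 and 38.4 FPKM, were expressed in every library. PLIN1, the coat protein of adipocytes, was at 0.00826, 0.0419 and 0 FPKM. The fatty acid transporter CD36 was at 0, 0.021 and 0.0124 FPKM. The lipase PNPLA2 was at 66.7, 62.3 and 58 FPKM and the last enzymes of triglyceride synthesis DGAT1 and DGAT2 at 4.57 ± 0.529 and 4.38 ± 0.849.

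Retinoid genes were expressed in 7 of 17 cases, or 41.2%, near the 36% of all listed and 46.4% of protein-coding genes. No read fell on 5 of them. Of the retinoic acid receptors RARG was at 36.3, 35 and 31.6 FPKM and RARA at 7.28, 7.61 and 7.52. Their partners RXRB and RXRA were at 19.8, 17.1 and 16 FPKM and at 7.97, 7.75 and 7.53 FPKM. The retinol importer STRA6 was at 4.4, 4.1 and 4.31 FPKM. The retinoic acid carrier CRABP2 was at 14.6, 12 and 11.1 FPKM. The receptor gene RARB, the plasma retinol carrier RBP4, and ALDH1A1 and ALDH1A2, which make retinoic acid, had no read in any library.

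Some genes with RT-qPCR primers lay below the expression limit in these libraries, and ADORA1 lay just above it. The primers, taken from the study's primer list, show which transcripts that assay reads. Among 14 listed genes that have RT-qPCR primers or were measured by Western blot 10 were expressed. The 4 others were COL3A1 (17, 31 and 28 counts), CREB1, PLIN1 and CD36 (0, 5 and 3 counts). The pairs below matched transcripts of their own gene only in GENCODE v29, each with 1 product length, and capitals are not used since no base is singled out.
COL3A1 forward: ttgaaggaggatgttcccatct
COL3A1 reverse: acagacacatatttggcatggtt
CD36 forward: ctttggcttaatgagactgggac
CD36 reverse: gcaacaaacatcaccacacca
PLIN1 forward: tgtgcaatgcctatgagaagg
PLIN1 reverse: agggcggggatcttttcct
ADORA1 forward: ccacagacctacttccacacc
ADORA1 reverse: taccggagagggatcttgacc
COL1A1 forward: agggtcaccgtggcttct
COL1A1 reverse: tctgctggctcaggctctt

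The expected products were 83 bases for COL3A1, 134 for CD36, 154 for PLIN1, 128 for ADORA1 and 402 for COL1A1. Both primers were found together in 3 transcripts of COL3A1, 11 of CD36, 2 of PLIN1, 3 of ADORA1 and 1 of COL1A1. Of the genes with primers shown, COL1A1 and ADORA1 were above 1 FPKM in every library. The reference gene ACTB of that assay was at 4514, 4766 and 4688 FPKM, with a CV of 2.77%. This CV holds for the deposited FPKM, to which the TMM factors of 0.842, 1.04 and 1.14 were not applied.

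The spread between libraries was the error behind every level above. The median log2 range of an expressed gene over the 3 libraries was 0.43, and 1517 expressed genes (20.3%) varied over 2-fold. With replicate 1 left out the median range was 0.15. Replicate 2 lay between the other libraries for 5917 expressed genes, or 79.0%. After a per-library correction of log2 CPM for GC content, genes over 2-fold fell from 1506 to 727 of 7398. On the deposited FPKM, the smallest CVs among the expressed named genes belonged to PGK1 at 289.8, 289 and 291 FPKM (CV 0.211%, GC content 43.9%), SLC2A1 (CV 0.555%, GC content 56.9%) and PRKACA (CV 0.695%, GC content 55.6%). These CVs depend on scaling by the library total. The TMM factors of 0.842, 1.04 and 1.14 in replicates 1, 2 and 3 would spread genes that are level without them. The same holds for other levels called steady above.

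The 10 genes with the widest range among those reaching 10 FPKM in a library varied 12.8- to 20.8-fold and had GC contents of 39.0% to 45.1%. All were lowest in replicate 1 and highest in replicate 3. CSE1L, a nuclear export receptor, was at 1.98, 20.003 and 41.1 FPKM. HSP90AA1 was at 7.09, 45.5 and 133 FPKM. SRP72, a subunit of the signal recognition particle, was at 0.744, 6.65 and 14.9 FPKM. CAPZA1, which caps actin filaments, was at 0.798, 5.64 and 15.6 FPKM. The splicing factor SF3B1 was at 0.902, 5.99 and 12.5 FPKM and the tRNA synthetase EPRS1 at 1.5, 6.54 and 19.2. The remaining genes were ZFR, COPB1, PLS3 and TWF1, with highest values from 11.9 to 22.5 FPKM. The part of GC content in this order was not tested.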

How the data were processed

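RNA-seq of the 3 control libraries of LX-2 cells was used, grouped by their sample labels, and the treated libraries were not. The authors deposited whole-number counts per gene, not normalized, and FPKM values, in which the length implied for a gene was identical across libraries (largest ratio 1). The submitters' processing notes name fastp, HISAT2, HTSeq, R 3.2.0 and GRCh38.p13. The annotation and the strand setting are not given in the sources used here, so that reads of antisense or overlapping genes may be misassigned. Library totals were 40539751 to 41210439 counts, and all 3 control columns of each table were used. The tables hold 0 further sample columns that could not be assigned to a sample.

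Levels are mean FPKM ± SD, with a gene called expressed at FPKM 1 or more in all 3 libraries. No test between groups was possible. The log2 range of a gene over the libraries used log2 FPKM, and a pseudocount of 0.1 for the widest ranges. GC content, exon overlap and coordinates come from GENCODE v29 (GRCh38), matched by symbol for 17600 of 20777 genes (84.7%). Gene starts come from the RefSeq promoter table (GRCh38.p14) and primers from the study's primer list. Python 3.11.15 with pandas 2.3.3 and numpy 2.4.6 was used. R 4.3.3 with edgeR 4.0.16 gave TMM and RLE factors, and a loess of log2 CPM on GC content (span 0.3, genes with at least 10 counts in every library) was tested on simulated data. TMM factors were 0.842, 1.04 and 1.14 in replicates 1, 2 and 3 and were not applied to the printed FPKM.

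The text names members of 34 gene lists (585 genes), the 30 nuclear genes with the highest mean FPKM, the 10 genes with the widest range among those reaching 10 FPKM in a library, and mitochondrial genes as a group. Members and lists were chosen with earlier results of these data known. Some listed genes are counted in their lists but not reported here by name. Genes missing from the tables are not counted as 0. They included 6 of 12 adenosine and P2Y receptor, 6 of 12 endothelial, 6 of 14 immune and 7 of 20 hepatocyte genes. Alternatives were other thresholds, averages, scalings, pseudocounts and gene lengths, a GC correction, and leaving out each library.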

Additional observations from a re-analysis of the deposited data

How the results depend on the processing

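No paired analysis was possible because only 1 group was used and no result came from a comparison between groups. The count of 7489 expressed genes ranged from 6206 to 8658 under other FPKM limits, the mean FPKM, TPM, TMM and RLE factors, from 7519 to 8483 with a library left out, and became 12037 with at least 10 counts in every library as the rule. The share of the 100 genes with most counts was 27.9% without mitochondrial genes and 34.1% to 38.6% with a library left out. The median log2 range of 0.43 became 0.61 with TMM factors, 0.63 with RLE factors, 0.85 over all genes with at least 1 count in every library, and 0.35 after the GC correction. Leaving out a library gave 0.15 to 0.42, with 0.15 without replicate 1. The log2 difference of KRT8 over COL1A1 of 8.32 was 8.14 and 8.30 with pseudocounts of 1 and 0.1, and 8.15 to 8.46 with a library left out. It was 7.25 with gene lengths from GENCODE v29, a setting chosen after seeing the data. The GC correction keeps the mean of each gene over the libraries, so that it could not move this difference and is no check of it. Of 26 ratios between named genes, 23 kept their order in every library with these lengths and 11 moved by over 1.5 times. Among 564 named genes with a rank, between 1 and 13 moved by more than the SD of their own rank under each other average or scaling, 49 to 54 with a library left out and 223 with GENCODE lengths, whose cause was not tested. Ranks of KRT8 lay between 28 and 49 and those of COL1A1 between 4225 and 4972 over these settings. Depth limits genes near 0 to the stated 3 counts, and counts of expressed genes in the TGF-β and cAMP lists depend on replicate 1.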
